A study of Mus musculus with 6 samples.

Results

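Elastic fibre and microfibril genes were followed in cardiac fibroblast libraries of control mice and of mice that had received carbon tetrachloride (CCL4 in the labels, CCl4 here), which damages and scars the liver. The group comprised 9 genes chosen by symbol (Eln, Fbn1, Fbln1, Fbln2, Fbln5, Efemp1, Mfap4, Mfap5 and Emilin1) out of 32479 rows of the deposited expression table. All 9 had their own row, and all 9 passed the filter on low values, a mean of at least 1 FPKM over the 6 libraries. FPKM counts fragments per length of the gene model and per mapped fragments of the library, so levels of different genes can be set beside each other. There were 2 groups of C57BL/6J mice with 3 libraries each, control and CCl4, and the design text gives 3 mice per group, which were used to model liver cirrhosis and its effect on the heart. Every library was labelled as primary cardiac fibroblasts isolated at the end of the modelling. Dose, route and duration of CCl4, what the control mice received, the sex and age of the mice and the way the cells were isolated are not stated in the labels or design text.

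Elastic fibres let arteries, valves and the heart wall recoil. Their core is elastin, made from the soluble monomer tropoelastin, which lysyl oxidases crosslink after it has been laid onto a scaffold of microfibrils. The microfibril is a bundle of fibrillin with small glycoproteins bound along it, and it also stores latent growth factors of the TGF-beta family. Fibulins bridge tropoelastin, fibrillin and the cell surface, and fibroblasts and vascular smooth muscle cells are known sources of all these proteins.

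In CCl4 libraries Fbn1, Efemp1 and Emilin1 were higher than in control libraries, while the elastin gene and the other 3 fibulins were not called. Fbn1, the fibrillin-1 backbone of the microfibril, averaged 2.09 times its control level, Efemp1 (fibulin-3) 2.11 times and Emilin1, a glycoprotein at the border of elastin and microfibril, 1.75 times. No member was called lower, and Eln itself averaged 3.84 ± 0.303 FPKM in control and 3.17 ± 0.212 FPKM in CCl4 libraries (SD, n = 3 each; adjusted p = 0.0752). Calls rest on limma's test, with p-values adjusted over all 10995 tested rows and a threshold of 0.05. The 3 members called higher of 9 compare with 9.64% of all tested rows called higher, the 0 called lower with 22.2%, and the 3 called in either direction with 31.8%. Before adjustment, 1 member (Eln) was lower at the same threshold. In 4 of the 9 members the groups did not overlap, as in 48.7% of all tested rows. The median log2 fold change was 0.35 over the 9 members and -0.09 over all tested rows.

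The libraries held much more than fibroblast RNA. The 12 cardiomyocyte markers summed to 14258 to 16946 FPKM in control and 19416 to 21144 FPKM in CCl4 libraries, led by Mb and Actc1, against 513.2 to 829.4 and 698.6 to 715.1 FPKM for the 16 fibroblast markers, led by Gsn and Dcn. Actc1 (means 1735 and 5840 FPKM) was called higher and made up most of the rise of the cardiomyocyte sum, and Myh7 (955.3 and 71.2 FPKM) was called lower. Of the 12 markers 9 were not called, and the list median overlapped between groups (1034 to 1444 and 1242 to 1302 FPKM). The higher cardiomyocyte sum thus does not describe that list. Markers of other cells known to make elastic fibres were present too. The 10 smooth muscle markers, led by Des and Acta2, summed to 548.8 to 631.4 and 392.8 to 419.2 FPKM. Des, which heart muscle also makes, made up most of that sum and was called lower (means 516.1 and 300.9 FPKM). Acta2 (21.8 and 46.6 FPKM), Smtn (17.2 and 32.1 FPKM) and Cnn1 (0.69 and 1.53 FPKM) were called higher. The other 5 tested markers were not called, so the lower sum does not describe the list. The 8 pericyte markers summed to 210.6 to 235.5 and 157.1 to 214.1 FPKM. The 10 endothelial markers summed to 225.5 to 258.9 and 233.2 to 253.6 FPKM, and the 8 adventitial fibroblast markers to 157.1 to 165.7 and 163.9 to 178.7 FPKM. The 10 macrophage markers were at 155.1 to 199 and 173.8 to 192 FPKM, the 5 erythroid markers at 537 to 2268 and 2231 to 4092 FPKM. The 7 mesothelial and 5 Schwann cell markers did not exceed 6.49 and 1.76 FPKM in sum. No marker of any list was at 0 in all 6 libraries. Of the tested markers, 10 of 16 fibroblast, 2 of 7 adventitial, 3 of 9 smooth muscle, 2 of 8 pericyte, 1 of 10 endothelial, 1 of 9 macrophage, 2 of 12 cardiomyocyte and 5 of 5 erythroid genes were called higher, and 1 each of the adventitial, smooth muscle, macrophage and cardiomyocyte lists was called lower. In such bulk libraries fewer cells of a type and less RNA per cell cannot be told apart, and the part of cell mixture in the results below was not tested. Of all calls 30.3% were higher in CCl4 with values as deposited, 12.8% after rescaling every library to a common sum (TPM), 47.7% with trimmed-mean (TMM) scaling and 51.2% with quantile scaling. The median log2 fold change of all tested rows was -0.09, -0.23, -0.02 and -0.00568 under these scalings, and the calls of Fbn1, Efemp1 and Emilin1 held under each.

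The 3 members called higher are shown first with the sequence around a RefSeq start of their genes, since RefSeq holds a window for each. The windows are from GRCm38.p6, reach from 250 bases before to 50 bases after the annotated start, and are written 5′ to 3′ along the gene. RefSeq and GENCODE place the starts of Fbn1 and Emilin1 differently: both windows lie wholly inside the GENCODE spans given with these genes in the text, downstream of the GENCODE start, so their positions count from the RefSeq start alone. Capitals mark matches on either strand to a GC box bound by SP and KLF factors (GGGCGG), an AP-1-like pattern (TGANTCA) or a CCAAT box (CCAAT). N stands for any base, so the AP-1-like pattern leaves its middle base open. TATA boxes (TATAAA), TEAD sites (GGAATG) and the palindromic SMAD element (GTCTAGAC) were searched too and are not in these 3 windows, and E-boxes (CANNTG), which 72.3% of all windows hold, are not marked.
Fbn1, chr2:125506389-125506688, minus strand: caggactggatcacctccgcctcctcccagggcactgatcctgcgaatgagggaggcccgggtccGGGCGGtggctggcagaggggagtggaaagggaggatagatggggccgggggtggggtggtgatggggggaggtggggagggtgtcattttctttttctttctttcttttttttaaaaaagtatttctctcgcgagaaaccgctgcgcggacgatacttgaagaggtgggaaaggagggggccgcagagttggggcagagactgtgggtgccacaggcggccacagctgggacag
Efemp1, chr11:28852955-28853254, plus strand: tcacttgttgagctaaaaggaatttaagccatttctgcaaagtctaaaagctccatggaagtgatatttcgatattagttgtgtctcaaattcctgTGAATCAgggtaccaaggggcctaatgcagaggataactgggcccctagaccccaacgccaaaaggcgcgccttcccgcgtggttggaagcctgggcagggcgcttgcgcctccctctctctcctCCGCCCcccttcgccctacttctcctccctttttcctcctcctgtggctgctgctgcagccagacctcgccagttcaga
Emilin1, chr5:30913536-30913835, plus strand: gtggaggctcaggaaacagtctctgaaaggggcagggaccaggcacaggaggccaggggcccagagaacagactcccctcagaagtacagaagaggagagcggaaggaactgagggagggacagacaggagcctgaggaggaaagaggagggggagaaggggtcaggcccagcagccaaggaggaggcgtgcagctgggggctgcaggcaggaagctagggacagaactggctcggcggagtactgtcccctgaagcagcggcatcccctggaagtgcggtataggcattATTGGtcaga

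The Fbn1 window had a GC box at position -185 from the start. That of Efemp1 had a GC box at -29 and, at -154, a match to the AP-1-like pattern with A as its middle base (TGAATCA). The Emilin1 window held a CCAAT box at position 41 and neither of the other marked motifs. No matches overlapped in these windows. Among all 32841 windows in the same table, 35.7% held the GC box, 7.81% the AP-1-like pattern with any middle base and 37.4% the CCAAT box. GC boxes were also present in the windows of Fbln2, in 1 of 2 windows of Fbln1 and in 1 of 2 of Fbln5, genes that were not called. GC content was 60.3% for Fbn1, 54.3% for Efemp1 and 61.7% for Emilin1, beside a median of 52.7% over all windows. These matches describe letters and show no binding.

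**Figure D1:**
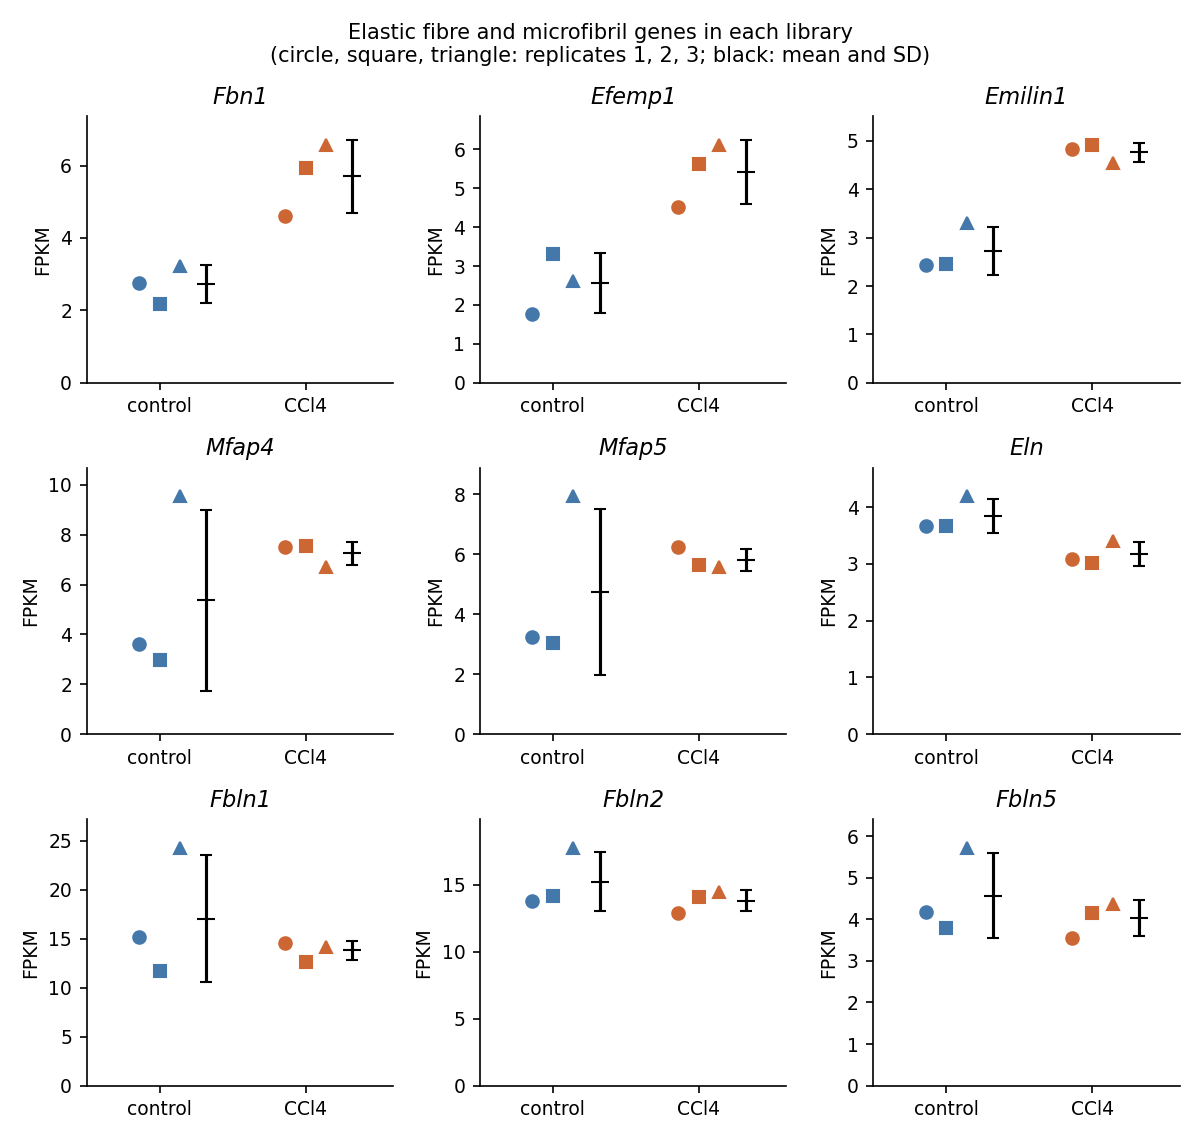
FPKM of each member (vertical axis, starting at 0) in the 3 control libraries (blue) and the 3 CCl4 libraries (orange), with symbols for replicates 1, 2 and 3 and the mean and SD in black. The groups do not overlap for Fbn1, Efemp1, Emilin1 and Eln, and control replicate 3 stands above both other control libraries for Mfap4, Mfap5 and Fbln1.

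Fbn1 lies on chromosome 2 at 125300594 to 125507993 in GRCm38, on the minus strand, with 12128 exonic bases in GENCODE M21. Human mutations of this gene cause Marfan syndrome, with dilatation of the aorta. Fbn1 was at 2.77, 2.17 and 3.23 FPKM in control replicates 1 to 3 and at 4.60, 5.94 and 6.57 FPKM in CCl4 replicates 1 to 3. Every CCl4 library lay above every control library, as was the case for 14.7% of all tested rows. The log2 fold change, CCl4 minus control on the log2(FPKM + 1) scale, was 0.85 ± 0.14 (SE; 95% interval 0.53 to 1.17; adjusted p = 0.00368). Over all alternatives it ranged from 0.74 to 1.07, with adjusted p from 0.00112 to 0.0225. An antisense gene model, Gm9913, shares 2442 exonic bases with Fbn1, and the strand setting of the quantification is not given. Gm9913 was at 0.03 FPKM or less in every library.

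Mfap5 and Mfap4 encode glycoproteins of the microfibril. Mfap5 (MAGP-2, chromosome 6, 122505845 to 122529290, plus strand) binds fibrillin, and Mfap4 (chromosome 11, 61485431 to 61488900, plus strand) is a fibrinogen-related protein found on elastic fibres. Mfap5 was at 3.24, 3.04 and 7.93 FPKM in the controls against 6.23, 5.64 and 5.57 FPKM after CCl4. Mfap4 was at 3.60, 2.96 and 9.54 FPKM in the controls against 7.49, 7.55 and 6.71 FPKM after CCl4. For both genes, control replicates 1 and 2 lay below all CCl4 libraries and control replicate 3 above all of them. The log2 fold changes were 0.35 ± 0.27 for Mfap5 (SE; 95% interval -0.27 to 0.97; adjusted p = 0.349) and 0.51 ± 0.32 for Mfap4 (95% interval -0.21 to 1.24; adjusted p = 0.243). Without control replicate 3 they were 0.72 ± 0.09 (adjusted p = 0.00162) and 0.95 ± 0.10 (adjusted p = 0.000936). In that fit 5 of the 9 members were called higher, beside 958 of all 10995 tested rows. Leaving out any other single library left Mfap5 between 0.15 and 0.37 and Mfap4 between 0.24 and 0.56, with neither called. Mfap4 shares 89 exonic bases with Mapk7 on the other strand, which was at 1.39 to 1.72 FPKM.

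Control replicate 3 was the highest control library for 8 of the 9 members, the exception being Efemp1, and for 36% of all tested rows. It stood at 2.91 times the mean of the other two control libraries for Mfap4, 2.53 times for Mfap5, 1.81 times for Fbln1 and 1.44 times for Fbln5. For Efemp1 and Eln the ratio was 1.03 and 1.14. In the same library 14 of 16 fibroblast markers, 6 of 8 adventitial fibroblast markers and 8 of 10 macrophage markers were highest among controls, against 1 of 12 cardiomyocyte markers. Pi16, the most variable of the adventitial fibroblast markers among controls, was at 4.56, 2.08 and 9.93 FPKM in control replicates 1 to 3. Ly6c1 (80.7, 85.7 and 75.4 FPKM) and Scara5 (5.37, 5.39 and 4.20 FPKM) were lowest in control replicate 3. The 8 adventitial markers summed to 161.9, 157.1 and 165.7 FPKM in these libraries. The part of the makeup of control replicate 3 in the spread of the members was not tested. The coefficient of variation was larger among control than among CCl4 libraries for all 9 members. The difference was small for Eln (7.89% against 6.68%) and Fbn1 (19.5% against 17.6%). The share of all tested rows with this order was not computed. The control value was largest for Mfap4 and Mfap5, with coefficients of variation of 67.6% and 58.4% in control and 6.46% and 6.24% in CCl4 libraries.

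**Figure D2:**
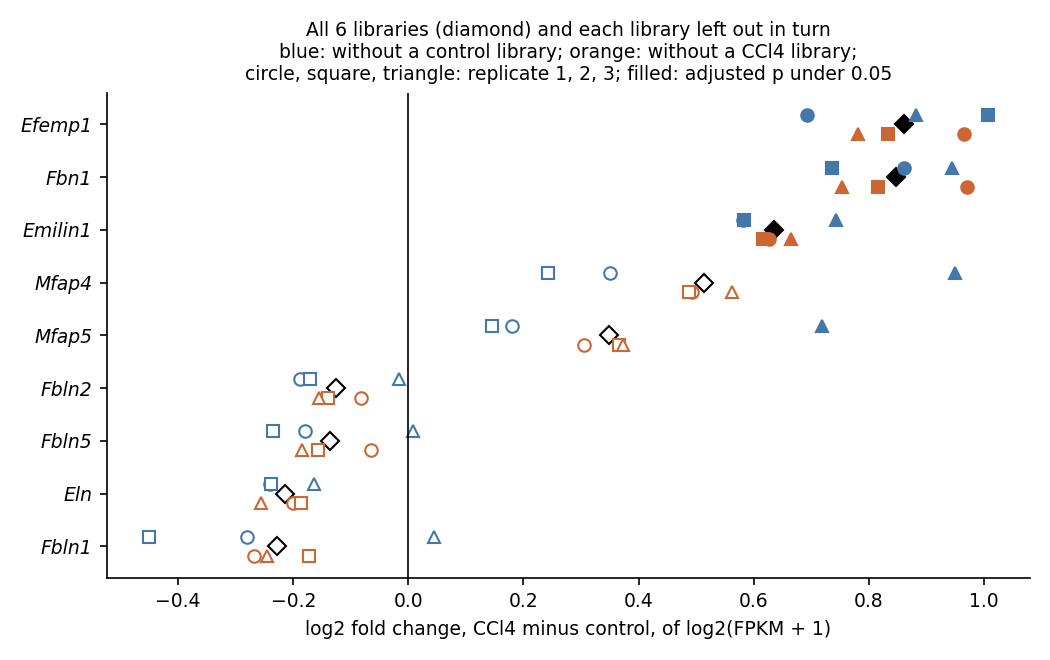
Log2 fold change of each member (horizontal axis, CCl4 minus control on the log2(FPKM + 1) scale) with all 6 libraries (black diamond) and with each library left out in turn, filled where the adjusted p was under 0.05. Fbn1, Efemp1 and Emilin1 keep their call in all 7 fits, while Mfap4 and Mfap5 reach 0.95 and 0.72 without control replicate 3 and are called in that fit alone.

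Emilin1 (chromosome 5, 30913402 to 30921277, plus strand) encodes a protein at the elastin and microfibril interface that, in mice, restrains the processing of the TGF-beta precursor. It was at 2.44, 2.45 and 3.30 FPKM in the controls against 4.84, 4.92 and 4.54 FPKM after CCl4. The groups did not overlap, and the CCl4 libraries were the tighter of the 2 groups, with coefficients of variation of 4.2% against 18.1%. The log2 fold change was 0.64 ± 0.10 (SE; 95% interval 0.40 to 0.87; adjusted p = 0.00316), and 0.57 to 0.82 over all alternatives.

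Eln (chromosome 5, 134702593 to 134747323, minus strand) encodes tropoelastin, the core protein. It was at 3.66, 3.67 and 4.19 FPKM in the controls against 3.09, 3.01 and 3.41 FPKM after CCl4. Each CCl4 library lay below each control library, a separation in this direction that 34% of all tested rows had. The log2 fold change of -0.21 ± 0.08 (SE; 95% interval -0.40 to -0.03) did not pass after adjustment (adjusted p = 0.0752). It was called lower after rescaling to TPM (-0.37, adjusted p = 0.0125) and after removal of the mitochondrial rows with a common sum (-0.32, adjusted p = 0.038), and stayed uncalled with TMM (-0.14, adjusted p = 0.182) and quantile scaling (-0.14, adjusted p = 0.198). Over all alternatives its adjusted p ranged from 0.0125 to 0.205.

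Efemp1 (chromosome 11, 28853204 to 28926743, plus strand), which in mice is needed for elastic fibres of the fascia, was at 1.78, 3.30 and 2.62 FPKM in the controls against 4.51, 5.61 and 6.11 FPKM after CCl4. The lowest CCl4 library lay above the highest control library. Its log2 fold change was 0.86 ± 0.16 (SE; 95% interval 0.49 to 1.23; adjusted p = 0.00635), and 0.69 to 1.11 over all alternatives, with adjusted p from 0.00284 to 0.0339.

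The other 3 fibulins were not called under any alternative that tested them. Fbln5 (chromosome 12, 101746565 to 101819055, minus strand), which binds tropoelastin and integrins and is required for elastic fibre assembly in mice, was at 4.18, 3.79 and 5.72 FPKM in the controls against 3.54, 4.16 and 4.37 FPKM after CCl4. Fbln1 (chromosome 15, 85205949 to 85286535, plus strand), found in elastic fibre cores and basement membranes, was at 15.1, 11.7 and 24.3 FPKM and at 14.6, 12.7 and 14.1 FPKM. Fbln2 (chromosome 6, 91212455 to 91272540, plus strand), which binds fibrillin and tropoelastin, was at 13.8, 14.2 and 17.8 FPKM and at 12.9, 14.1 and 14.4 FPKM. In all 3 the groups overlapped, and control replicate 3 held the highest value. Their log2 fold changes were -0.14 (95% interval -0.44 to 0.17; adjusted p = 0.461) for Fbln5, -0.23 (-0.73 to 0.27; adjusted p = 0.448) for Fbln1 and -0.13 (-0.37 to 0.12; adjusted p = 0.389) for Fbln2. Without control replicate 3 those of Fbln1 and Fbln5 turned to 0.045 and 0.00851.

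**Figure D3:**
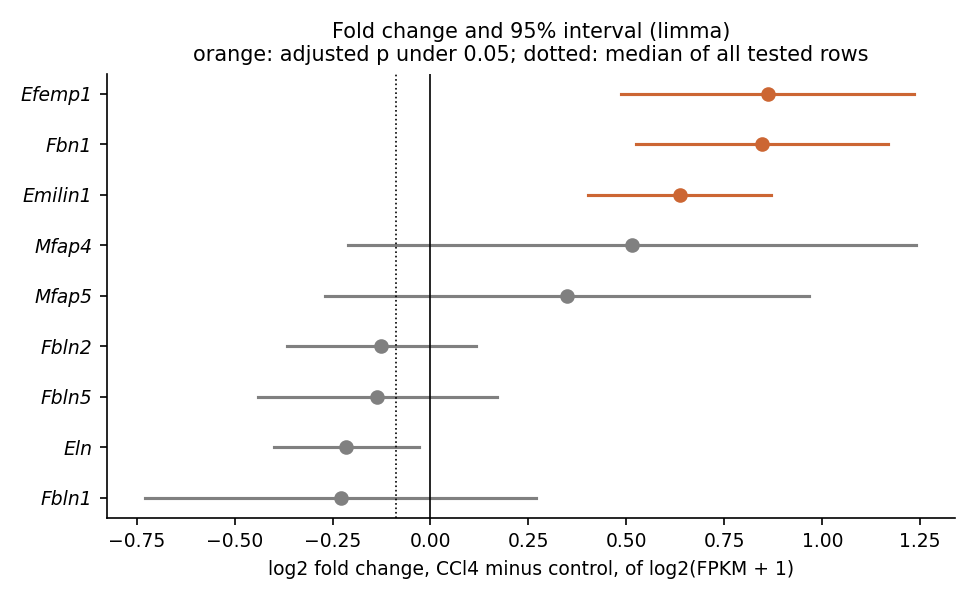
Log2 fold change with its 95% interval for each member (horizontal axis, CCl4 minus control on the log2(FPKM + 1) scale), in orange where called and grey where not; the dotted line is the median of all tested rows. Efemp1, Fbn1 and Emilin1 lie at 0.86, 0.85 and 0.64, and the intervals of Mfap4, Mfap5 and Fbln1 are the widest.

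The order of the levels changed between the groups. In control libraries Fbln1 (17.1 FPKM) and Fbln2 (15.2 FPKM) stood highest, with ranges that overlapped each other and no other member. Mfap4, Mfap5, Fbln5 and Eln followed at 5.37, 4.74, 4.56 and 3.84 FPKM, neighbours with overlapping ranges. Emilin1, Fbn1 and Efemp1 had the lowest means at 2.73, 2.72 and 2.57 FPKM. Their ranges overlapped each other and those of Mfap4 and Mfap5. In control replicate 2 Efemp1 (3.30 FPKM) stood above Mfap5 (3.04 FPKM) and Mfap4 (2.96 FPKM). In CCl4 libraries Fbln1 and Fbln2 were still highest at 13.8 FPKM each, followed by Mfap4 at 7.25 FPKM. Mfap5, Fbn1, Efemp1 and Emilin1 came next at 5.81, 5.70, 5.41 and 4.77 FPKM, each overlapping its neighbour. Fbln5 at 4.02 FPKM and Eln at 3.17 FPKM were last, in places 8 and 9 of all 3 CCl4 libraries, with ranges clear of each other and of Emilin1. In control libraries Eln held places 4, 4 and 6, and Fbn1 places 7, 9 and 8. The 9 levels summed to 50.6, 47.3 and 78.6 FPKM in the controls against 61.8, 63.6 and 65.8 FPKM after CCl4, which overlap.

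Ratios within a library do not depend on how the library was scaled. Relative to Fbn1, on a log2 scale, Eln was at 0.40, 0.76 and 0.38 in control and -0.57, -0.98 and -0.95 in CCl4 libraries. There was thus more Eln than Fbn1 per length in every control library and less in every CCl4 library, a mean difference of -1.35. The ratios of Fbln1, Fbln2 and Fbln5 to Fbn1 were lower by 1.31, 1.20 and 1.23, again without overlap. Fbn1 averaged 2.09 times its control level, so a gene at the same level in both groups would show a lower ratio too. None of Eln, Fbln1, Fbln2 and Fbln5 was called with values as deposited, and these ratios are no separate evidence of a change in them. For these 4 of the 8 ratios the two-sided exact permutation p was 0.1, the smallest that 3 against 3 libraries can give, and 0.2 after Benjamini-Hochberg adjustment over the 8. The ratios of Mfap4, Mfap5, Emilin1 and Efemp1 to Fbn1 overlapped between groups, with mean differences of -0.44, -0.63, -0.25 and 0.04 (exact permutation p from 0.2 to 1).

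**Figure D4:**
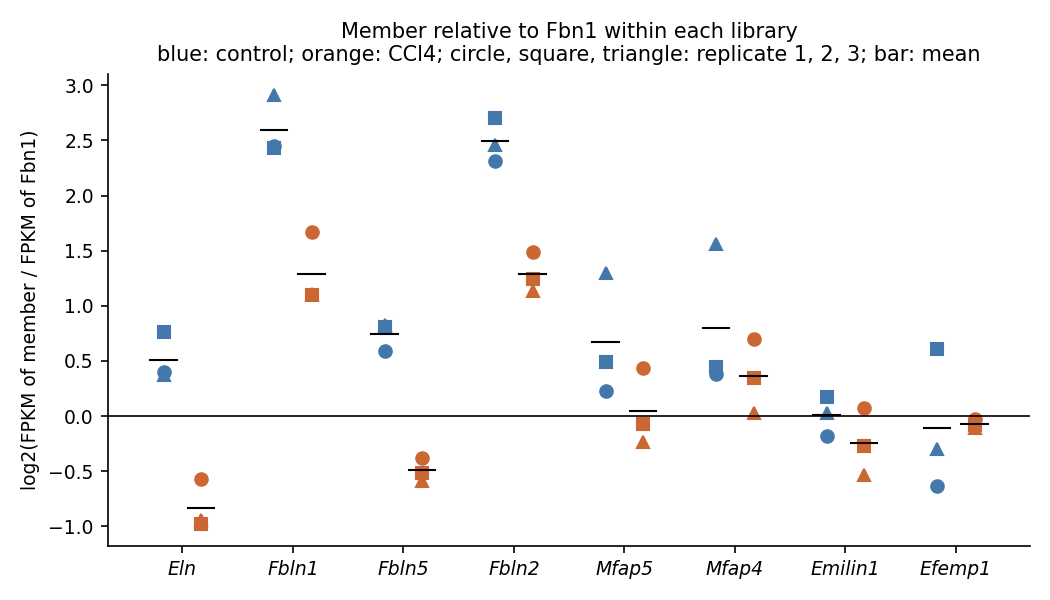
Log2 ratio of each other member to Fbn1 within each library (vertical axis; blue control, orange CCl4, bars for means). Eln and Fbln5 lie above 0 in all control libraries and below 0 in all CCl4 libraries, and the control values of Efemp1 spread from -0.64 to 0.60 around the CCl4 values near -0.07.

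The members were also set beside the fibroblast markers in each library. The median of the 16 fibroblast markers was 4.29 to 8.98 FPKM in control and 18.5 to 20 FPKM in CCl4 libraries, and 10 of the 16 were called higher, Col1a1, Col1a2 and Col3a1 among them. Relative to that median, 8 of the 9 members were lower in every CCl4 library than in any control library, Fbn1 by 0.57, Emilin1 by 0.83 and Eln by 1.92 on the log2 scale, and Efemp1 overlapped. The median log2 fold change of the 16 markers was 0.62, beside 0.85 for Fbn1, 0.86 for Efemp1 and 0.64 for Emilin1. The list median in FPKM thus rose more than its markers typically did. A lower ratio to it does not mean that a member rose less than most fibroblast markers. A gene at the same level in both groups would show a lower ratio to this median too. The result depended on the denominator. With the collagens taken out of the list, 4 members (Eln, Fbln1, Fbln2 and Fbln5) were lower without overlap and the other 5 overlapped, Emilin1 at -0.20 and Fbn1 at 0.051 among them. Relative to Pdgfra, the receptor of resident fibroblasts, which was at 3.47, 3.73 and 4.71 FPKM in the controls against 3.47, 3.59 and 3.68 FPKM after CCl4, Fbn1, Efemp1 and Emilin1 were higher without overlap, by 1.21, 1.25 and 0.96, and the other 6 members overlapped. Relative to Dcn, the proteoglycan decorin, 5 members were higher without overlap, Mfap4 and Mfap5 included, by 0.92 and 0.73. Relative to the median of the smooth muscle list, 4.71 to 5.38 FPKM in control and 3.13 to 6.57 FPKM in CCl4 libraries, Fbn1, Efemp1 and Emilin1 were again the 3 that did not overlap, higher by 1.10, 1.14 and 0.84. No test was run on these ratios to lists or markers. The share of all tested rows that would not overlap relative to each of these denominators was not computed.

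Likeness of profiles over the 6 libraries was measured by the root-mean-square distance of centred log2(FPKM + 1) values. Predicted genes (Gm numbers and Rik symbols), symbols with -ps and mitochondrially encoded rows were left out. The nearest 3 of the other tested rows were taken for each called member. For Fbn1 they were Kdelr3 (distance 0.03), Loxl2 (0.04) and Gpr153 (0.05). For Emilin1 they were Nrp2 (0.03), Tmem141 (0.03) and Lmo1 (0.04). Those of Efemp1 lay farther off, with Ccl11 at 0.11, Abat at 0.12 and Hspb6 at 0.13. Of these 9 rows, Loxl2 is a lysyl oxidase and belongs to the list of related genes.

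Other genes that build, crosslink, cut or bind elastic fibres moved in both directions. Of 52 such genes 35 passed the filter, 9 rose and 7 fell, beside 9.64% and 22.2% of all tested rows, with a median log2 fold change of 0.13. Only 2 of the 9 rises (Efemp2 and Loxl2) and 5 of the 7 falls (Lox, Fkbp10, Adamtsl4, Ctsl and Itgb5) kept their call under every alternative that tested them. Efemp2, Loxl2 and Lox were not tested at a mean FPKM of at least 5. Among 12 tested genes of microfibrils and their relatives 3 rose and none fell. Efemp2 (fibulin-4), which brings lysyl oxidase to tropoelastin, was at 1.27, 1.14 and 1.59 FPKM in the controls against 2.09, 2.60 and 2.38 FPKM after CCl4 (log2 fold change 0.53 ± 0.10, SE; adjusted p = 0.00677). The hemicentin Hmcn2 and the endothelial EMILIN relative Mmrn2 differed by 0.36 and 0.39 (log2; adjusted p = 0.0323 and 0.04). The Hmcn2 call was lost without any library except control replicate 1 (adjusted p 0.065 to 0.0885), and that of Mmrn2 without any except control replicate 3 (0.0559 to 0.121). Fbn2, the fibrillin of development, was at 0.09 FPKM or less in every library and was not tested. Mfap2 (MAGP-1), the partner of Mfap5 on fibrillin, was at 1.39 ± 0.587 and 1.54 ± 0.219 FPKM (SD, n = 3 each; adjusted p = 0.623). Ltbp4, a latent TGF-beta binding protein that also guides elastin assembly, was the most abundant of them at 36.3 ± 7.85 and 46.3 ± 3.00 FPKM (adjusted p = 0.0921), and was called with TMM (0.45, adjusted p = 0.0391), with quantile scaling (0.48, adjusted p = 0.0453) and without control replicate 3 (0.51, adjusted p = 0.0213).

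The lysyl oxidases, which crosslink elastin and collagen, did not move together. Lox was at 2.24, 2.64 and 3.56 FPKM in the controls against 1.52, 1.56 and 1.50 FPKM after CCl4 and fell by 0.58 ± 0.12 (SE; adjusted p = 0.00974). Loxl2 was at 1.86, 1.27 and 2.25 FPKM and at 3.18, 4.44 and 4.64 FPKM, a rise of 0.87 ± 0.16 (adjusted p = 0.00541). Loxl1, which in mice is needed to renew elastic fibres, was at 5.15, 4.13 and 8.85 FPKM and at 9.40, 9.10 and 10.7 FPKM (0.66 ± 0.21, adjusted p = 0.0455). Loxl1 kept its call in the fit without control replicate 3 and lost it in the 5 other fits that omit a library (0.46 to 0.70, adjusted p 0.0848 to 0.126). Fkbp10, an endoplasmic reticulum chaperone of collagen and tropoelastin, fell from 12.4 ± 1.08 to 6.64 ± 0.197 FPKM (SD, n = 3 each; log2 fold change -0.81, adjusted p = 0.000443).

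Of 4 tested ADAMTS and ADAMTS-like genes, whose proteins bind fibrillin, Adamtsl4 fell from 14.1 ± 0.976 to 8.10 ± 1.34 FPKM (SD, n = 3 each; -0.74, adjusted p = 0.00297). Of 5 tested proteases that can cut elastin, the gelatinase Mmp2 and the cathepsin Ctsk differed by 0.63 and 0.65 on the log2 scale (adjusted p = 0.038 and 0.0327). The Mmp2 call was lost without any library except control replicate 3 (0.076 to 0.0965), and that of Ctsk without any CCl4 library (0.0712 to 0.0972). The cathepsin Ctsl fell from 27.3 ± 1.57 to 13.6 ± 0.735 FPKM (-0.96, adjusted p = 0.000211). Of 8 tested receptor genes, the integrin subunit Itgb5 fell from 46.7 ± 5.06 to 25.2 ± 2.14 FPKM (-0.86, adjusted p = 0.000902). Itgb1 and Itga5, which form a fibronectin receptor that also binds fibrillin-1, stood at log2 fold changes of -0.30 (adjusted p = 0.0314) and -0.31 (adjusted p = 0.0272). With TMM neither was called (-0.21 and -0.23, adjusted p = 0.0749 and 0.0657), nor was Itgb1 without replicate 1 or 3 of either group (0.0605 to 0.0905) or Itga5 without any library except control replicate 1 (0.051 to 0.082). Itga9 and Glb1, the lysosomal beta-galactosidase with a splice form that binds elastin in humans, had 0.35 each (adjusted p = 0.0298 and 0.0208), not called as TPM (0.26 and 0.24, adjusted p = 0.111 and 0.102). The Itga9 call was also lost without control replicate 2 or any CCl4 library (0.0595 to 0.0886), and that of Glb1 without replicate 3 of either group or replicate 2 of the controls (0.0592 to 0.0791).

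**Figure D5:**
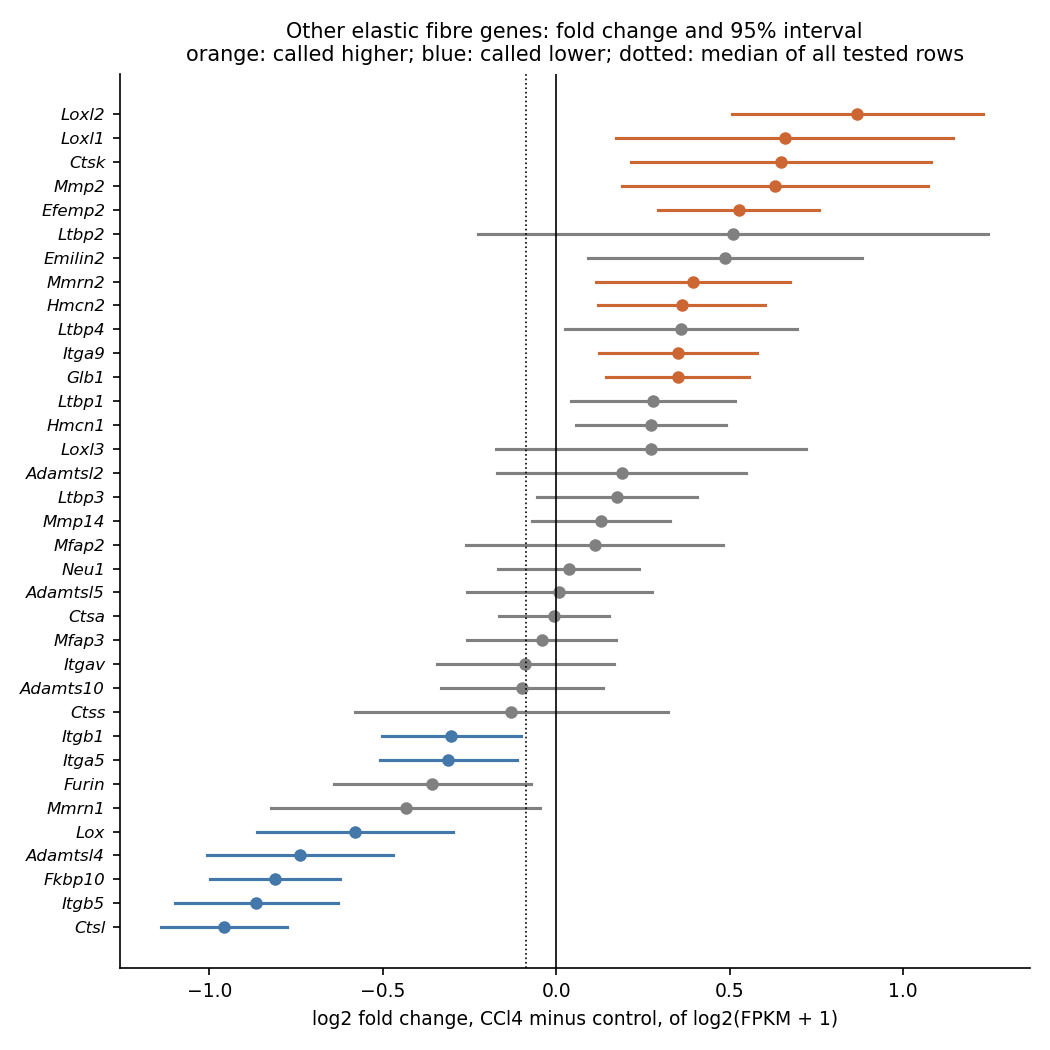
Log2 fold change and 95% interval of the 35 tested genes related to elastic fibres (horizontal axis, CCl4 minus control on the log2(FPKM + 1) scale), in orange where called higher, in blue where called lower and in grey where not called; the dotted line is the median of all tested rows. Loxl2 at 0.87 and Ctsl at -0.96 stand at the ends.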

How the data were processed

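RNA sequencing libraries were made, per the labels' protocols, from Trizol-extracted RNA by oligo(dT) capture, with a uracil-marked second strand, and read from both ends. The authors deposited FPKM values, 1 column per library, made with StringTie 2.1.6 on GRCm38 per the submitters' processing notes. No source used here names the aligner, the annotation release or the strand setting. The FPKM sums ran from 519609 to 602763, and 48.6% to 53.2% of each came from 37 mitochondrially encoded rows. Depth is unknown. Of low values in short single-exon genes, 26.4% to 35.4% came within 10% of whole fragments, with the unit per fragment inferred from the same values. Evenly spread values would also fall there in part, so this share gives no depth, and no count test was run.

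Values were taken as log2(FPKM + 1), rows averaging 1 FPKM or more were kept, and limma 3.58.1 under R 4.3.3 tested CCl4 against control (eBayes with trend, two-sided, no covariate), with Benjamini-Hochberg adjustment over all 10995 rows. Fold changes on this scale understate the change of low genes. The test was checked on simulated data. TMM factors were computed on the FPKM table. No source says that libraries were prepared apart, so p-values measure the spread between these libraries. Alternatives covered pseudocounts, filters, scalings, variance models, the replicate number as a block and each library left out. Ratios to Pdgfra, Dcn and the fibroblast list without collagens were chosen after seeing the data.

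The members, the related genes and the marker lists were chosen with earlier results of these data known. All members are named, as are all called related genes and 6 fixed by name whatever their result. Positions are from GENCODE M21 (GRCm38), matched by symbol. Promoter windows are from RefSeq on GRCm38.p6, which held 8 windows for 6 members.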

Additional observations from a re-analysis of the deposited data

How the results depend on the processing

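Fbn1, Efemp1 and Emilin1 kept their direction and call under each of the 16 alternatives that could be fitted for them. At a mean FPKM of at least 5, they and 2 other members were not tested, so 0 of the 4 members left were called higher, with 655 rows higher and 1510 lower of 4915 and 3 higher among the related genes. Rescaled to TPM, 617 rows were higher and 4221 lower, 1 member (Eln) was lower and 2 related genes were higher. With mitochondrial rows removed, 1 member (Eln) was lower and 5 related genes higher. With quantile scaling 1722 rows were higher, and with no filter 4 related genes. Leaving out 1 library at a time gave 642 to 1137 rows higher and 1546 to 2121 lower, 3 to 5 members higher and 2 to 12 related genes higher, the cause of which was not tested. In these fits Fbln1 ranged from -0.45 to 0.045 and Fbln5 from -0.24 to 0.0085, both reversed without control replicate 3. Of the ratios to the fibroblast list median, those of Fbn1 and Efemp1 turned to 0.051 and 0.091 without the collagens in the list. Relative to Pdgfra it turned to 1.21 for Fbn1, 0.00352 for Fbln2, 0.77 for Mfap4, 0.58 for Mfap5, 0.96 for Emilin1 and 1.25 for Efemp1. Relative to Dcn it turned to 0.015 for Eln, 1.36 for Fbn1, 0.050 for Fbln1, 0.16 for Fbln2, 0.13 for Fbln5, 0.92 for Mfap4, 0.73 for Mfap5, 1.11 for Emilin1 and 1.40 for Efemp1. Deviations from the group means were nearly uncorrelated between libraries of the same replicate number (-0.06, 0.05 and -0.04 for numbers 1, 2 and 3). With 3 libraries per group these correlations cannot decide whether the numbers pair the samples. With the replicate number as a block 861 rows were higher and 1790 lower, and 3 members were called higher. With unknown depth, no counting error can be given for members at 2 to 6 FPKM.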
